A study of Mus musculus with 6 samples.

Results

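The transport and gate genes of the cilium were read as a list of 46 names from intraflagellar transport (IFT), the BBSome and the transition zone: 6 of IFT-A, 15 of IFT-B, 7 of the BBSome, 3 of BBSome assembly and recruitment, 2 ciliary GTPase genes and 13 of the transition zone. All 46 were found by symbol among the 47643 genes of the files, 45 had a count in at least 1 library, and 44 passed the filter on low counts and were tested. Ttc21b and Nphp4 did not pass. Cilia are built and supplied by IFT, in which 2 protein complexes, IFT-B and IFT-A, ride on motors along the axoneme and carry cargo to the tip and back. The BBSome is a coat-like adaptor that moves membrane proteins with these trains, and the transition zone is the gate at the base of the cilium that decides which proteins enter. Ependymal cells line the ventricle wall and carry many motile cilia each.

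The libraries came from ependymal cells of the adult mouse subventricular zone, sorted by GFP 2 days after tamoxifen. There were 3 libraries of the conditional knockout (cKO), in which tamoxifen deletes Ccn1 and switches on GFP in ependymal cells, and 3 of the control, which the labels call Ctrl or CTR. Both genotypes were gated on GFP against wild-type cells. Cre driver, allele, strain and exact age are not stated in the labels, nor is it said whether the 3 libraries of a genotype came from separate animals, so p-values measure only the spread between these samples, which may be technical. The labels describe the RNA as cytoplasmic in one field and as total in another. Since these are bulk samples, fewer cells of a type and less RNA per cell cannot be told apart.

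Library totals ran from 13401499 to 15689579 estimated counts. Ccn1, listed under its older symbol Cyr61, stood at 18.7, 11.6 and 23.7 TPM in the cKO libraries and 63.6, 98.7 and 93.5 TPM in the controls, so each library went with its label (log2 difference -2.22 ± 0.38 SE, edgeR quasi-likelihood adjusted p = 0.99999 over all genes, DESeq2 adjusted p = 4.15e-06). An exact two-sided permutation test gave p = 0.1, the smallest that 3 against 3 libraries allow. The ependymal label held: 10 markers (among them Foxj1, Tmem212, Ccdc153 and Rarres2) summed to 23500 to 24600 TPM in the cKO and 23200 to 27400 TPM in the control. Rarres2 and Tmem212 gave the largest parts, with means of 7573 and 5452 TPM, while Foxj1 averaged 13.9 TPM and ranged from 3.26 to 18.8 TPM. Of the 5 endothelial markers, 4 had no count in any library. Neuron markers summed to at most 11.6 TPM and microglia markers to at most 50.4 TPM, while astrocyte and neural stem cell markers, several of which ependymal cells share, summed to 1230 to 1420 TPM in the cKO and 1220 to 1660 TPM in the control. Choroid plexus markers, from another ciliated epithelium of the ventricle, summed to 298 to 941 TPM in the cKO and 520 to 706 TPM in the control. The 8 oligodendrocyte markers summed to 209 to 238 TPM in the cKO and 94.9 to 324 TPM in the control.

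Some of these genes hold the same short element in their promoters. RFX transcription factors switch on ciliary genes through the X-box, a palindrome made of the arm GTTNCC, a spacer of 2 bases and the arm GGNAAC. RefSeq promoter windows on GRCm38.p6 (250 bases before to 50 after the start site) were available for 41 of the 46 genes, and 4 of them (9.76%) held the X-box with all 10 fixed letters, against 0.826% of the 8472 tested genes with a window and 0.529% of all 27025 genes in the table. With at most 1 mismatch the shares were 31.7% (13 of 41 genes), 4.57% and 2.89%, and with at most 2 mismatches 51.2%, 19.5% and 15.8%. A further list of 39 ciliary transport and transition zone genes with a window lay between, at 5.13%, 17.9% and 35.9% for 0, 1 and 2 mismatches allowed, so the element is not particular to the listed genes. The pair of arms is its own reverse complement, so 1 strand covers both. The single arm GTTGCC, searched on both strands and overlapping the X-box, was in 48.8% of the listed genes, 33.3% of that further list and 14.1% of all genes.

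At most 1 mismatch was found in 8 of 12 transition zone genes, 3 of 7 BBSome genes, 2 of 12 IFT-B genes and none of the 5 IFT-A genes with a window. The 12 transition zone genes had 16 windows to search, since some have several start sites, while the genes of IFT-A, IFT-B and the BBSome had 1 each. At most 2 mismatches were found in 10 transition zone genes, of 21 such genes in all. The windows below are shown because they hold the 4 exact matches (Ahi1, Mks1, Tctn1 and Bbs7), the near matches of the B9-domain genes and of Tmem231, whose levels are described further on, and the 2 IFT-B genes with a near match. They read 5′ to 3′ along the gene's strand, and capitals mark the X-box.
Ahi1, chr10:20952560-20952589, plus strand: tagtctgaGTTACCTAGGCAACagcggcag
Mks1, chr11:87853183-87853212, plus strand: gcgtctccGTTGCCAGGGGAACgaggcacc
Tctn1, chr5:122264411-122264432, minus strand: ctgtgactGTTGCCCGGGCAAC
Bbs7, chr3:36613489-36613518, minus strand: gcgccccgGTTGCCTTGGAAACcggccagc
B9d1, chr11:61505130-61505159, plus strand: taccgtctGTTTCCAAGACAACcgagagcc
B9d2, chr7:25680788-25680817, plus strand: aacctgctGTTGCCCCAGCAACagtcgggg
Tmem231, chr8:111933781-111933810, minus strand: cgccgtcgGTTGCCGTGGAGACtcggcgct
Ift57, chr16:49699199-49699228, plus strand: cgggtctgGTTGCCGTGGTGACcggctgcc
Ift22, chr5:136908079-136908108, plus strand: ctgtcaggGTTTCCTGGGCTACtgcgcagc

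Positions were bounded by the window searched. The middle of the X-box was 28 bases after the start in Ahi1, 43 after it in Tctn1, 23 after it in B9d2, 18 after it in Tmem231 and 1 after it in B9d1. In Mks1 it was 17 bases before the start, in Ift22 56, in Ift57 80 and in Bbs7 114 bases before it. The farthest match, in Nphp4 (chr4:152477903-152477932), lay 224 bases before a RefSeq start site. That stretch is inside the annotated gene, which begins at 152476706 on the plus strand. The levels of matched and other genes overlapped widely: the 13 genes with at most 1 mismatch ran from 0.386 to 398 TPM (median 45.6), and the 28 others with a window ran from 0 to 924 TPM (median 29.7). A match is a run of letters, and binding was not measured.

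**Figure D1:**
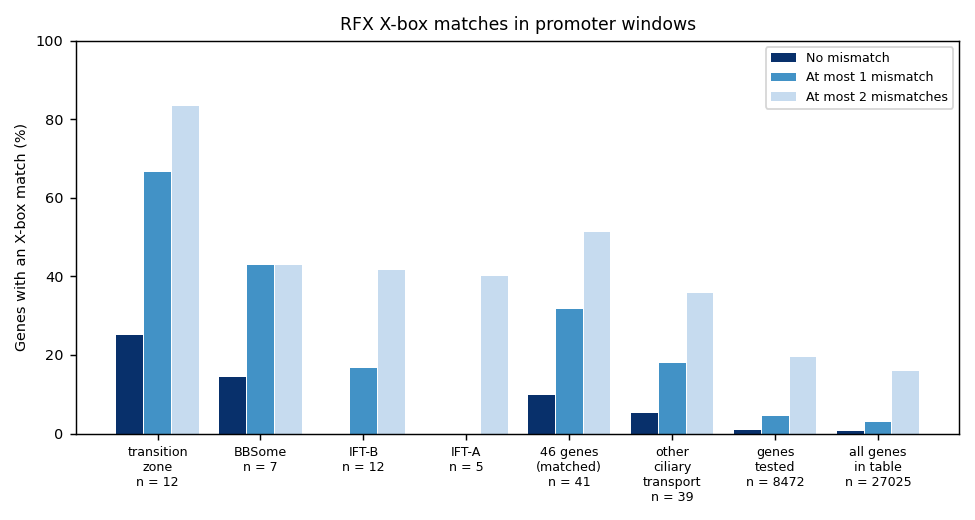
Share of genes (percent, y axis) whose RefSeq promoter window holds an RFX X-box with no mismatch, at most 1 or at most 2 mismatches, for the listed genes by complex, a list of other ciliary transport genes, the genes tested and all genes of the table. The transition zone reached 66.7% at no more than 1 mismatch, against 4.57% of the genes tested.

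Across complexes, IFT-B had the highest summed TPM. Its 15 genes summed to 2637, 2401 and 2599 TPM in the cKO and 2453, 2465 and 2380 TPM in the control. IFT-A followed with 985 ± 108 TPM in the cKO and 970 ± 130 TPM in the control (SD, n = 3 each), then the transition zone with 727 ± 51.6 TPM in the cKO and 835 ± 52.6 TPM in the control. The GTPase genes Arl3 and Arl13b summed to 650 ± 52.4 TPM in the cKO and 535 ± 92.7 TPM in the control, and the BBSome to 303 ± 30.7 TPM in the cKO and 259 ± 68.4 TPM in the control. BBSome assembly and recruitment genes summed to 242 ± 44.2 TPM in the cKO and 206 ± 70.9 TPM in the control. By sum, IFT-B exceeded every other group in 6 of 6 libraries, and IFT-A exceeded the transition zone in 6 of 6. These sums run over unequal numbers of genes. Per listed gene, the mean was 166 TPM in IFT-B, 163 TPM in IFT-A and 60.1 TPM in the transition zone. It was 296 TPM in the GTPase genes, 40.1 TPM in the BBSome and 74.6 TPM in the assembly and recruitment genes.

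The sums hide how uneven the subunits were. Taking the median gene in place of the sum, the 2 GTPase genes stood at 296 TPM, IFT-B at 155 TPM, the BBSome at 45.6, the transition zone at 14.2 and IFT-A at 9.76 TPM, and in 6 of 6 libraries this median was higher in the transition zone than in IFT-A. The assembly and recruitment genes had a median of 3.91 TPM, and the 296 TPM is the midpoint of Arl3 (568 TPM) and Arl13b (24.5 TPM). Ift43 alone gave 94.5% of the IFT-A sum and B9d1 50.9% of the transition zone sum. Arl6 gave 96.5% of the sum of the assembly and recruitment genes and Arl3 95.9% of the GTPase sum. Without Ift43, the other 5 IFT-A genes summed to 49.9 ± 9.33 TPM in the cKO and 58.1 ± 21.8 TPM in the control (SD, n = 3 each).

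**Figure D2:**
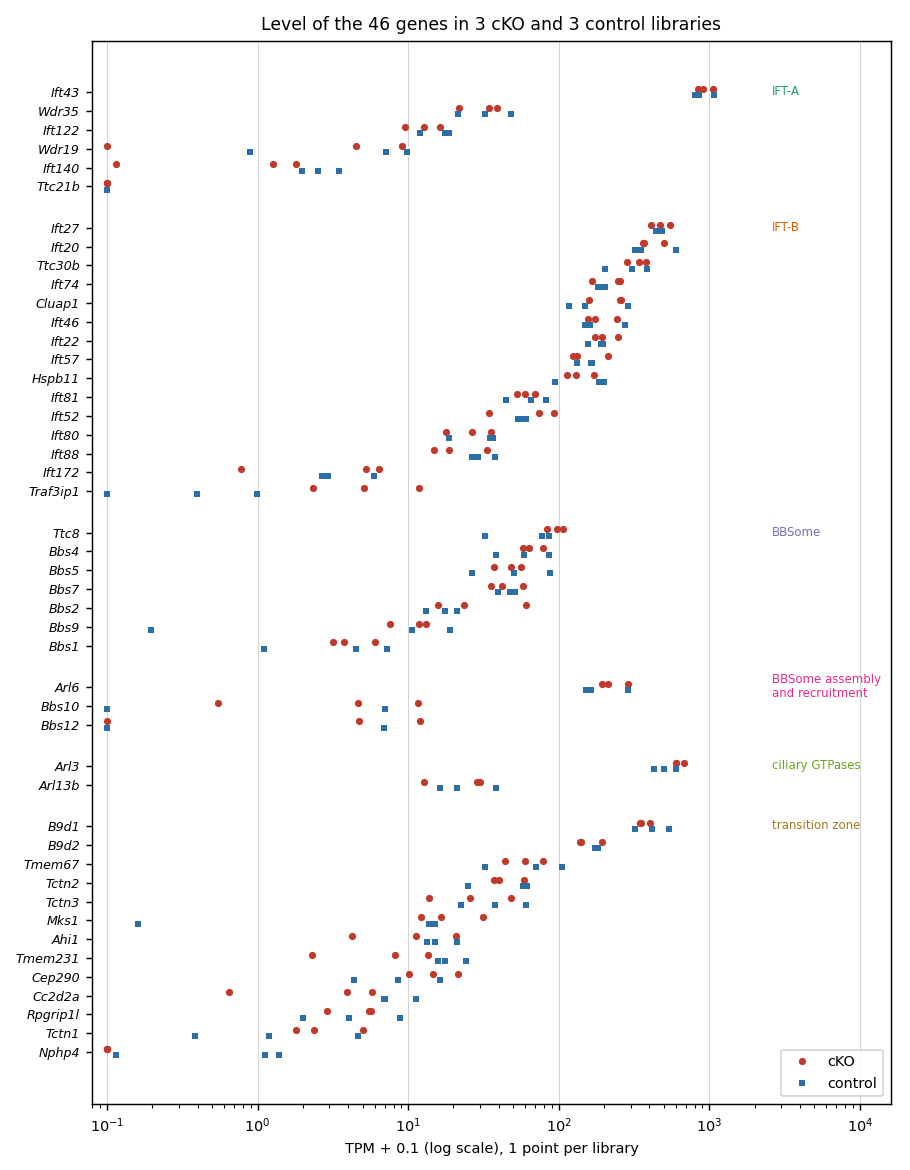
Deposited TPM plus 0.1 (log scale, x axis) of each of the 46 genes in each library, by complex, with cKO libraries as circles above control libraries as squares. Ift43 leads at 806 to 1080 TPM, and points at the left edge are libraries with no count, as for Ttc21b in all 6.

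**Figure D3:**
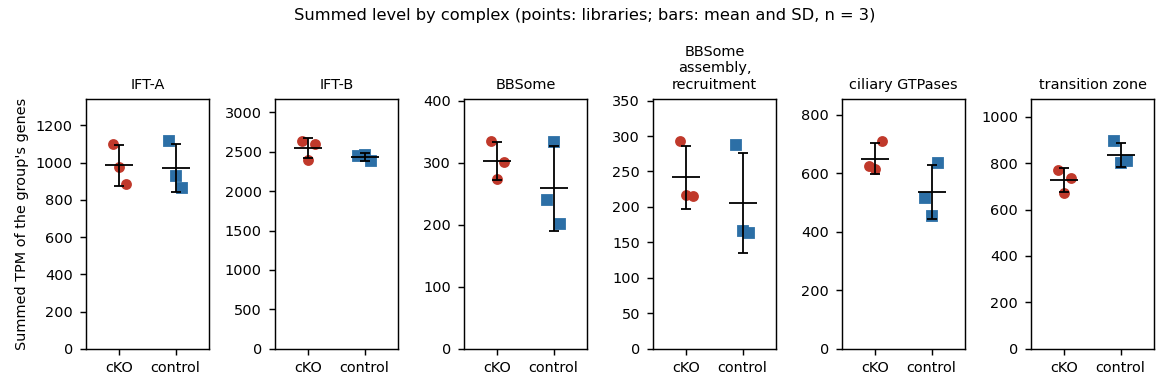
Summed TPM (y axis, from 0) of the genes of each complex, with 1 point per library and the mean and SD of 3 cKO and 3 control libraries. The transition zone is the group whose cKO points (671 to 773 TPM) all lie below its control points (800 to 895 TPM).

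IFT-A, the complex of the return journey that also brings membrane receptors into the cilium, showed the widest range of levels. Ift43, which encodes its smallest subunit (chromosome 12, 86082541 to 86162459), had 1054, 914 and 837 TPM in the cKO and 1080, 851 and 806 TPM in the control, and ranked 135 among the 11574 genes tested. The groups overlapped, and the highest value in each came from replicate 1. Wdr35, a scaffold subunit, had 21.7, 38.9 and 34.5 TPM in the cKO and 21.3, 47.8 and 32.2 TPM in the control. For Ift122, another scaffold gene, the values were 12.7, 16.1 and 9.46 TPM in the cKO and 11.9, 18.6 and 17.5 TPM in the control. Both genes overlapped between genotypes.

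The remaining IFT-A genes were lower on TPM. Ift140 had 1, 72 and 112 counts in the cKO and 147, 210 and 171 counts in the control, or 0.072, 5.32 and 8.17 CPM in cKO libraries against 9.66, 15.2 and 10.9 CPM in controls. All 3 cKO values lay below all 3 controls, with cKO 1 far lowest, and the log2 difference of -1.40 ± 1.81 (SE) did not pass (edgeR quasi-likelihood adjusted p = 0.99999). Wdr19 had 483, 228 and 0 counts in the cKO and 70, 625 and 398 counts in the control, and ranged from 0 to 9.73 TPM. Ttc21b, the gene of a tetratricopeptide subunit, had 0 counts in all 6 libraries, which allows up to 3 counts in each library of at least 13401499, by counting error only.

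IFT-B carries cargo outward, and most of its genes were well detected. Of its 15 genes, 9 averaged between 149 and 467 TPM. Ift27, a Rab-like GTPase that pairs with Hspb11 and is needed to bring the BBSome out of the cilium, had 549, 408 and 471 TPM in the cKO and 484, 440 and 448 TPM in the control. Its partner Hspb11 had 114, 130 and 171 TPM in the cKO and 200, 94.9 and 185 TPM in the control. Ift20, the subunit that also works at the Golgi, had 362, 370 and 499 TPM in the cKO and 597, 353 and 323 TPM in the control. The spread of Ift20 between controls was wider than the difference between genotypes.

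Ttc30b, which encodes a tetratricopeptide subunit of the IFT-B core, had 343, 377 and 282 TPM in the cKO and 203, 306 and 386 TPM in the control. The near copies Ttc30a1 and Ttc30a2 averaged 7.27 and 0.0073 TPM, and the way kallisto divides reads among the copies makes each of these values uncertain. Ift74, which binds tubulin together with Ift81, averaged 207 TPM while Ift81 averaged 62.2 TPM. Cluap1 (204 TPM), Ift46 (194 TPM), Ift22 (193 TPM) and Ift57 (155 TPM) lay in the same range, Cluap1 sharing 510 exonic bases with the annotated gene Gm20695 on its own strand. Ift52, Ift80 and Ift88, the last of which is the gene mutated in the oak ridge polycystic kidney mouse, averaged 62.0, 28.3 and 26.6 TPM. At the bottom were Ift172, with a mean of 3.89 TPM, and Traf3ip1, with 3.35 TPM.

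Traf3ip1, a peripheral IFT-B subunit that binds microtubules, had the largest fitted log2 difference of the 44 genes tested. It had 349, 84 and 201 counts in the cKO and 0, 7 and 24 counts in the control, which is 25.1, 6.21 and 14.7 CPM in cKO libraries against 0, 0.507 and 1.52 CPM in controls. The groups did not overlap, and control 1 had no count. The log2 difference was 4.48 ± 2.18 (SE), with a 95% interval from -0.57 to 9.54, an unadjusted edgeR quasi-likelihood p of 0.075 and an adjusted p of 0.99999. It passed the filter through its cKO libraries, and a fitted difference this near zero counts depends on the pseudocount: on log2(TPM + 1) it was 2.21. DESeq2 gave an unadjusted p of 0.00235 and an adjusted p of 0.103. Traf3ip1 lies on chromosome 1 from 91494647 to 91529307 on the plus strand in GRCm38.

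BBSome genes lay within a narrower band. Ttc8, which encodes the subunit known as BBS8, led with 98.0, 83.8 and 107 TPM in the cKO and 86.6, 77.6 and 32.2 TPM in the control, where control 3 was lowest. Bbs4, a subunit that binds centriolar satellites before joining the complex, had 57.6, 78.4 and 63.8 TPM in the cKO and 38.5, 85.6 and 59.0 TPM in the control. Its exons share 194 bases with Adpgk on the other strand, and no source used here says whether counting used strand. For Bbs5, the membrane-lipid binding subunit, the values were 47.9, 37.3 and 56.3 TPM in the cKO and 50.4, 87.9 and 26.5 TPM in the control. All 3 genes overlapped between genotypes.

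The beta-propeller subunits Bbs7, Bbs2, Bbs9 and Bbs1 averaged 45.6, 25.1, 10.3 and 4.20 TPM. Bbs2 had 60.4 TPM in cKO 1 and 13.1 to 23.3 TPM in the other 5 libraries. Bbs9 had 4 counts in control 1 against 288 to 703 counts elsewhere. The BBSome subunit genes showed a median log2 difference of 0.14, 5 higher and 2 lower in the cKO, with none passing.

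Arl6, the GTPase that recruits the BBSome to membranes, was more abundant per length than any BBSome subunit, with 288, 194 and 211 TPM in the cKO and 287, 152 and 164 TPM in the control. Bbs10 and Bbs12 encode chaperonin-like proteins that help assemble the BBSome. Bbs10 had 14, 339 and 143 counts in the cKO and 0, 202 and 0 counts in the control, and Bbs12 had 121, 296 and 0 counts in the cKO and 0, 174 and 0 counts in the control. Both were highest in cKO 2 and were found in a single control library, control 2.

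Arl3 releases lipid-modified cargo inside the cilium, and Arl13b, a membrane GTPase of the ciliary shaft, activates it. Arl3 had 597, 601 and 680 TPM in the cKO and 500, 432 and 597 TPM in the control. On CPM the values were 297, 283.5 and 344 in the cKO and 270.04, 202 and 283.4 in the control, so the groups did not overlap on CPM by a margin of less than 0.1 CPM, while on TPM they did overlap. The log2 difference was 0.29 ± 0.20 (SE, edgeR quasi-likelihood adjusted p = 0.99999). Arl13b averaged 23.8 ± 9.61 TPM in the cKO and 25.2 ± 11.5 TPM in the control (SD, n = 3 each).

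Of the 13 transition zone genes listed, B9d1 and B9d2, which encode B9-domain proteins, had the highest mean TPM. B9d1 had 406, 355 and 345 TPM in the cKO and 544, 417 and 320 TPM in the control, and B9d2 had 140, 137 and 195 TPM in the cKO and 175, 183 and 181 TPM in the control. Mks1, of the same domain family, averaged 14.7 TPM and had 460, 319 and 880 counts in the cKO and 2, 359 and 453 counts in the control. Control 1 was the exception for Mks1 and the highest library for B9d1. Tmem67, which encodes the membrane receptor-like protein meckelin, had 79.0, 43.8 and 59.2 TPM in the cKO and 32.2, 70.5 and 106 TPM in the control. It shares 289 exonic bases with Rbm12b2 on the other strand.

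The tectonic genes were unequal, at means of 46.6 TPM for Tctn2, 34.7 TPM for Tctn3 and 2.47 TPM for Tctn1. Tctn1 also shares 1574 exonic bases with Hvcn1 on the other strand, and without strand, reads that fall within these shared bases cannot be told apart. Cep290, whose protein spans the gap from microtubule to membrane, averaged 12.5 TPM and shares 881 exonic bases with 4930430F08Rik on the other strand. Rpgrip1l, a scaffold gene, averaged 4.72 TPM.

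Of the 12 transition zone genes tested, 3 were lower on CPM in every cKO library than in any control, a pattern that 4.62% of all genes tested showed. Tmem231, a membrane protein gene, had 19.2, 5.02 and 32.4 CPM in cKO libraries and 40.5, 39.4 and 54.6 CPM in controls (fitted log2 difference -1.25 ± 0.75 SE). Cc2d2a, which encodes a C2-domain scaffold, had 2.59, 17.4 and 27.3 CPM in cKO libraries and 35.1, 31.2 and 50.8 CPM in controls (-1.31 ± 0.89). Ahi1, which encodes jouberin, had 40.3, 36.9 and 17.4 CPM in cKO libraries and 67.5, 64.8 and 43.1 CPM in controls (-0.89 ± 0.50). A different library was lowest in each gene: cKO 2 for Tmem231, cKO 1 for Cc2d2a and cKO 3 for Ahi1. None passed (edgeR quasi-likelihood adjusted p = 0.99999 for each). On TPM, Ahi1 overlapped, with 20.6, 11.2 and 4.12 TPM in the cKO and 15.0, 21.2 and 13.2 TPM in the control.

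Nphp4, which encodes a nephrocystin of the transition zone, had 0 counts in all 3 cKO libraries and 73, 72 and 1 counts in the controls. It was too low for the filter, and in DESeq2, which was run without that filter, its adjusted p was 0.208. The summed TPM of the transition zone was 773, 671 and 738 in the cKO and 895, 800 and 810 in the control, without overlap. Without B9d1 it was 366, 316 and 393 TPM in the cKO and 351, 383 and 489 TPM in the control, and the groups overlapped. On CPM the whole sum also overlapped, at 968, 757 and 907 in the cKO and 952, 894 and 1119 in the control. The 8 markers of neuroblasts and transit-amplifying cells summed to 7.07 to 8.77 TPM in the cKO and 9.29 to 26.8 TPM in the control. The part of such cells in these sums was not tested.

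Over the whole set, no gene passed the test used. That test did not call the deleted gene Ccn1 either (edgeR quasi-likelihood unadjusted p = 0.000415, adjusted p = 0.99999). A lack of calls therefore does not show that levels were equal. edgeR called 0 of the 44 tested genes at an adjusted p of 0.05, where it called 0% of all 11574 genes tested. At an unadjusted p of 0.05 it had 0 of 44, against 2.75% of all genes. DESeq2 called 0 of the listed genes, with 1.63% called among all genes, and limma-voom called 0. At an unadjusted p of 0.05, DESeq2 had 2 genes, Traf3ip1 and Nphp4, against 6% of all genes, and limma-voom had Traf3ip1 alone, against 5.25% of all genes. The cKO libraries lay above all controls for 2 of the 44 genes, Traf3ip1 and Arl3, where 4.99% of all genes did. They lay below all controls for 4, Ift140, Tmem231, Cc2d2a and Ahi1, where 4.62% did. Nphp4, which was not tested, also had all cKO values below all controls.

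The 44 fitted differences split evenly, 22 above and 22 below 0. Their median on the log2 scale was -0.010, beside 0.0044 over all genes tested. By complex, the counts of higher and lower genes were 1 and 4 in IFT-A, 9 and 6 in IFT-B, and 3 and 9 in the transition zone. For 31 of 44 genes (70.5%) the difference was within 0.5 on the log2 scale, against 52.2% of all genes, which were not matched for level. At a mean of 1600 counts or more, the median absolute log2 difference was 0.145 over 17 listed genes and 0.168 over all 1739 genes of that level. Between 400 and 1600 mean counts it was 0.33 over 17 listed genes and 0.36 over all 3429 genes of that level.

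**Figure D4:**
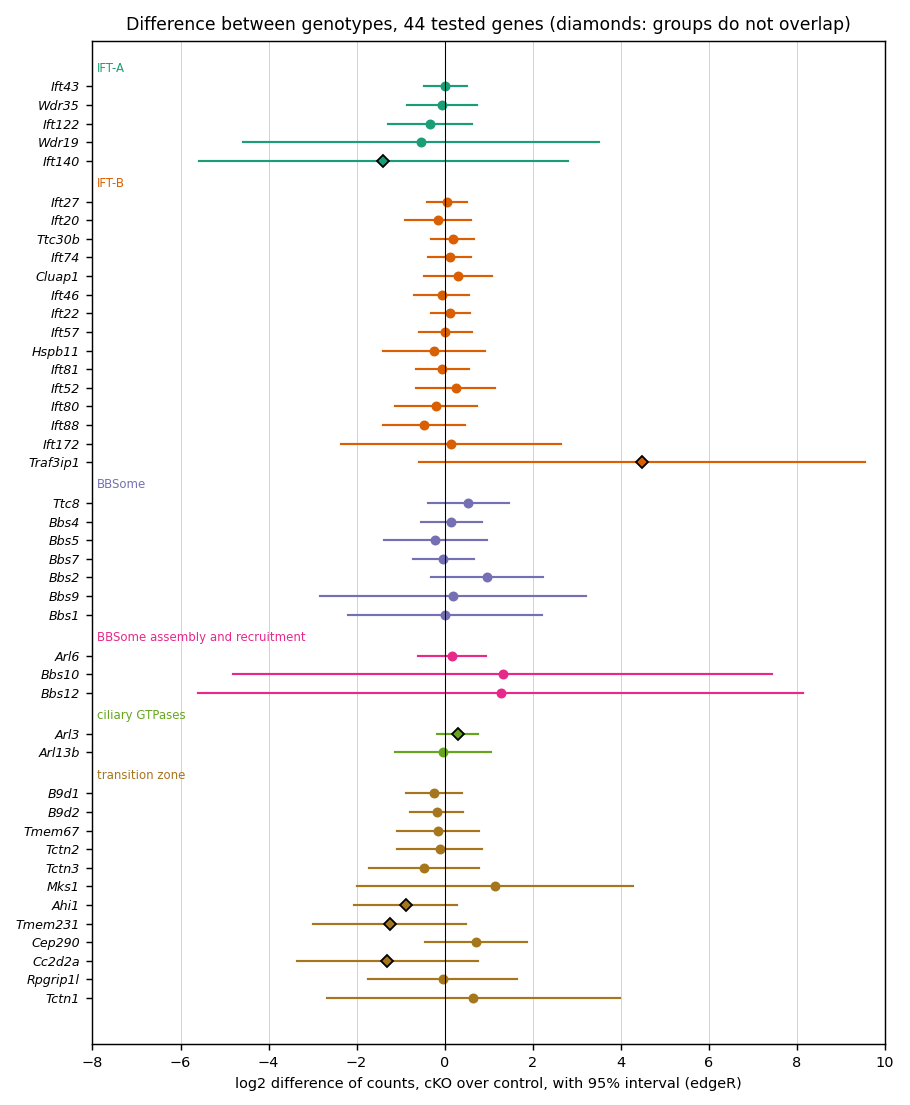
Fitted log2 difference of counts, cKO over control, with its 95% interval from edgeR (x axis), for the 44 tested genes by complex. Diamonds mark the 6 genes whose genotypes do not overlap on CPM, and the interval of every gene includes 0.

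For the abundant genes the intervals were narrower, though they rest on the spread between these samples, which may be technical. The 95% interval of the log2 difference was -0.47 to 0.50 for Ift43, -0.41 to 0.51 for Ift27, -0.17 to 0.75 for Arl3 and -0.87 to 0.40 for B9d1. For Wdr19 it was -4.58 to 3.49 and for Bbs12 -5.59 to 8.15, so a difference of several fold in either direction was not detectable in those genes. The common dispersion over all genes tested was 1.28. It is 1 summary over genes of all levels and does not describe the abundant genes. The SE of the log2 difference was 0.21 for Ift43 and 0.27 for B9d1, against 1.74 for Wdr19.

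Low genes dropped out of single libraries. Between 100 and 400 mean counts, 4 of 9 genes (44.4%) were at or under 3 counts somewhere, as were 51% of the 3981 tested genes of that level. Between 400 and 1600 mean counts it was 1 of 17, Mks1, and among the 17 above that level it was 0. The median coefficient of variation of TPM over the 6 libraries was 21.6% in the top level class, 38.9% in the next and 64.9% in the 100 to 400 class, beside 21.3%, 42.8% and 78.3% for all tested genes of these levels. Control 1, the library with the fewest genes detected (12460), had 5 of the 46 genes at 3 counts or fewer. Control 2 (14349 genes) had 1 and cKO 2 (14530 genes) had 2.

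Levels were lower for genes with longer transcripts. The 6 genes whose longest annotated transcript was under 1500 bases had a median of 408 TPM, the 15 genes of 1500 to 3000 bases 80.8 TPM, the 12 of 3000 to 4500 bases 25.9 TPM and the 13 longer ones 4.72 TPM. TPM is already scaled for length. Over the 46 genes Spearman's rho between length and mean TPM was -0.74, and within single libraries it was -0.75 to -0.70. These genes share their 6 libraries and are not independent replicates. All genes tested had the same trend with a rho of -0.49 over 11551 genes, and medians of 50.7, 21.6, 8.98 and 3.67 TPM in the same length classes. Ift43, with 838 bases, and Ift140, with 6942, stood at the ends of this trend within 1 complex. Whether the trend lies in the cells or in library preparation was not tested.

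**Figure D5:**
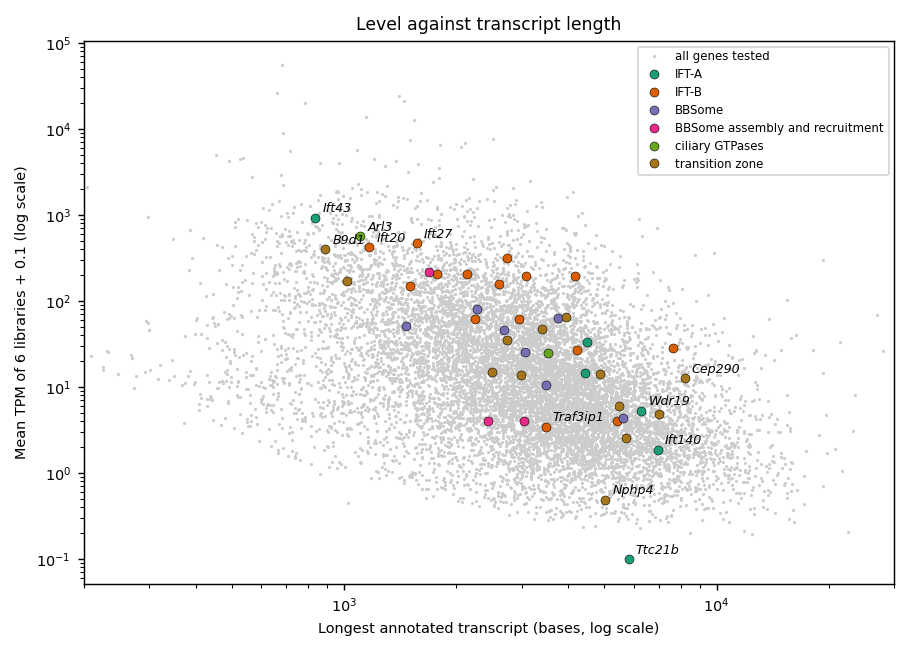
Mean TPM of 6 libraries plus 0.1 (log scale, y axis) against the longest annotated transcript in bases (log scale, x axis) for all genes tested in grey and the 46 genes in the colour of their complex. Short genes such as Ift43, Arl3 and B9d1 lie at the top left, and the long IFT-A genes Wdr19, Ift140 and Ttc21b at the lower right.

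Other genes of the same machinery were read from a further list of 46 names, of which 44 were in the files and 41 were tested. The fitted differences of these 41 lay above 0 for 20 and below 0 for 21 (median -0.023 on the log2 scale). At an adjusted p of 0.05, edgeR, DESeq2 and limma-voom each called 0 of them. At an unadjusted p of 0.05, edgeR had Pde6d alone (2.44%, against 2.75% of all genes tested). DESeq2 had 2, Pde6d and Rabl2, against 6% of all genes, and limma-voom had Pde6d alone, against 5.25%. The most abundant was the transition zone gene Tmem107, with 1887, 1799 and 1704 TPM in the cKO and 2142, 1456 and 1557 TPM in the control. Rabl2, a GTPase that binds IFT-B, had 404, 396 and 337 TPM in the cKO and 438, 588 and 411 TPM in the control, and the transition zone gene Tmem216 averaged 376 TPM. Pde6d, whose product carries prenylated cargo that Arl3 releases, had the smallest p, with 181, 100.4 and 129 CPM in cKO libraries and 242, 199 and 238 CPM in controls. Its log2 difference was -0.73 ± 0.26 (SE), with an edgeR quasi-likelihood adjusted p of 0.99999. On CPM, 2 of the 41 genes, Pde6d and Tulp3, were lower in every cKO library than in any control, as were 4.62% of all genes tested. None of the 41 lay above all controls, where 4.99% of all genes did. Rpgr, which encodes a GTPase regulator at the transition zone, had 76.5, 52.0 and 56.3 TPM in the cKO and 39.6, 54.6 and 20.97 TPM in the control, with overlap.

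The further list also holds the motors of transport. Among parts of the outward motor, Kif3a averaged 71.4 TPM, Kifap3 14.0 TPM and Kif3b 1.15 TPM, while Kif17, a separate outward motor, averaged 0.861 TPM. Of the return motor, the light intermediate chain gene Dync2li1 averaged 261 TPM and the very long heavy chain gene Dync2h1 20.5 TPM. Its other chain genes Tctex1d2, Wdr34 and Wdr60 averaged 232.5, 108 and 25.3 TPM. The BBSome subunit gene Bbip1 averaged 94.2 TPM, above all BBSome genes listed here.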

How the data were processed

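Each sample has 1 deposited table, which gives every gene an estimated count and a TPM, per the file headers. The submitters' processing notes name CASAVA 1.8, cutadapt 1.11 and kallisto 0.42.5, a pseudoaligner that shares ambiguous reads among transcripts. No source used here states the build, the annotation or how transcripts were summed to genes. Estimated counts were rounded. The authors' TPM values were used as deposited.

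Genes passing filterByExpr (11574) entered the robust quasi-likelihood test of edgeR 4.0.16 (R 4.3.3) after TMM scaling, with genotype as the only term and Benjamini-Hochberg adjustment at 0.05. CPM values are TMM-scaled. The SE is the log2 difference divided by the root of F. DESeq2 1.42.0, limma 3.58.1, other scalings, filters and pseudocounts, a replicate block and each library left out were alternatives. IDs were matched to GENCODE M21 on GRCm38 (99.1%), the source of gene coordinates, exon overlaps and lengths. Genes were named by level (the 3 highest by TPM in each complex), by unadjusted p under 0.05 and by groups that do not overlap on CPM; further genes with values were chosen after their values were seen. The list of genes and the other lists were chosen with earlier results of these data known.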

Additional observations from a re-analysis of the deposited data

How the results depend on the processing

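Of the 10 alternatives to the edgeR fit, each called 0 of the listed genes. Over all genes DESeq2 called 198, limma on log2(TPM + 0.1) 60 and limma on log2(TPM + 1) without a filter 23, where the others called 0; the cause was not tested. Listed genes at an unadjusted p of 0.05 numbered 2 with DESeq2 and 1 each with no filter, limma-voom and the 3 TPM fits, and 0 to 2 with 1 library left out. Those were Bbs2 without cKO 3, Arl6 without control 1, Cluap1 and Bbs10 without control 2, and Nphp4 and Cep290 without control 3. With the median gene in place of the sum, the log2 ratio of cKO over control was -0.32 for IFT-A, -0.051 for IFT-B and 1.61 for BBSome assembly and recruitment, against 0.021, 0.065 and 0.23 for sums. The ratio of 1.61 rests on medians near 0, at 4.63, 11.9 and 4.55 TPM in the cKO and 0, 6.88 and 0 TPM in the control. Differences of single genes were followed only for the 3 highest tested genes of each complex and for tested genes without overlap on CPM. The signs of the other listed genes were not followed. Among the genes followed, leaving out 1 library turned the sign of Ift43 (-0.094 to 0.24), Wdr35 (-0.27 to 0.23), Ift20 (-0.36 to 0.27), Ift27 (-0.071 to 0.17), Bbs4 (-0.052 to 0.43), Bbs5 (-0.55 to 0.23), Arl6 (-0.027 to 0.62), Arl13b (-0.27 to 0.345), B9d1 (-0.43 to 0.068) and Tmem67 (-0.46 to 0.25). Traf3ip1 ran from 3.91 to 5.87, Tmem231 from -1.89 to -0.80, Cc2d2a from -1.97 to -0.80, Ahi1 from -1.11 to -0.60 and Ift140 from -2.15 to -0.82. A replicate block called 0 genes and gave a median log2 difference of -0.019 over the listed genes, which ran from -0.067 to 0.13 with 1 library left out. Deviations of equally numbered libraries correlated at -0.021 to 0.039 over 3465 genes, so the numbers were not taken as pairs.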
